A study of Homo sapiens with 6 samples.

Results

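The cytosolic ribosomal protein genes are the 82 protein-coding genes, of 30015 genes in the deposited table, whose symbols follow the RPL and RPS scheme of the large and small ribosomal subunits, with the stalk genes RPLP0, RPLP1 and RPLP2 and with RPSA, and without chromosome Y. The rule uses name and biotype alone and no measured value, although the group was picked with earlier results of these data known. The rule took 50 large subunit genes and 32 small subunit genes, on 21 chromosomes, of which 12 lie on chromosome 19 and 4 on chromosome X. RNA-seq was performed on HMV-II cells, a line from a human mucosal melanoma, in 3 Vector libraries and 3 shEZH2 libraries. Both groups were the same line carrying a lentivirus and were selected with puromycin as stable cells. The shEZH2 cells expressed a short hairpin RNA against EZH2, the methyltransferase of Polycomb repressive complex 2, and the Vector cells a scrambled hairpin. The table heads the knockdown columns sh1, and which of the study's 2 hairpins this was is not given in the sources used here, so the knockdown is that of 1 hairpin. The labels do not say whether replicates came from separate cultures, so p-values measure only the spread between these libraries.

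Each ribosome is built from ribosomal RNA and usually 1 copy of each ribosomal protein, so cells keep the mRNAs of these proteins at similar and high levels. Most of these mRNAs are short and begin with a C followed by a tract of pyrimidines, the 5′ TOP motif, through which mTORC1 signalling and LARP1 control their translation and stability. Several proteins also act outside the ribosome, such as RPL5 and RPL11, which bind MDM2 when ribosome assembly is disturbed. Genes of the same class also host small nucleolar RNAs in their introns. In a melanoma line, high ribosome production is a usual feature of dividing cells.

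EZH2 was read at 483, 437 and 552 normalized counts in the Vector libraries and at 237, 247 and 225 in the shEZH2 libraries, and the groups did not overlap. Its log2 fold change was -1.04 ± 0.14 (SE; limma, adjusted p = 0.0142), and the exact two-sided permutation p was 0.1, the smallest that 20 arrangements of the 6 libraries can give. All 9 listed melanocyte and melanoma markers had means of at least 10 normalized counts. Of these, PMEL, SOX10, TYR and DCT were read in every library, with means over the 6 libraries of 58732, 16031, 4746 and 4134 normalized counts. A mean of at least 10 was also reached by 1 of 4 keratinocyte and epithelial markers found and by 2 of 7 fibroblast and endothelial markers found. The leukocyte markers PTPRC, CD14 and CD68 had means under 10. Depth was 13400290 to 19128939 reads per library. The library Vector replicate 2 stood apart from the others, so the groups were compared with and without it.

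The sequence at the annotated start was taken from RefSeq (GRCh38.p14), which gave a promoter window for 66 of the 82 genes. Among these, 47 genes (71.2%) had a C at an annotated start followed by at least 4 C or T, against 7.08% of 9882 other coding genes that were tested. The starts below, 10 bases before and 20 bases from the annotated start, show the genes on which the comparisons turn and the paralogs that differ from them, with the pyrimidine tract in capitals where it begins at the start.
RPL31 (chr2:101002279-101002308, + strand): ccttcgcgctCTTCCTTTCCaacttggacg
RPL36A (chrX:101391001-101391030, + strand): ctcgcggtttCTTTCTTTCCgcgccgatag
RPS6 (chr9:19380217-19380246, - strand): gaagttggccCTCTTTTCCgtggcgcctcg
RPLP2 (chr11:809957-809986, + strand): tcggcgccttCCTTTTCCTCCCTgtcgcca
RPS27 (chr1:153990752-153990781, + strand): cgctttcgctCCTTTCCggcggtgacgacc
RPSA (chr3:39406710-39406739, + strand): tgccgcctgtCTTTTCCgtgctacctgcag
RPL22L1 (chr3:170870176-170870205, - strand): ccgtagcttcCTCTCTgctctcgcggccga
RPL3 (chr22:39319604-39319633, - strand): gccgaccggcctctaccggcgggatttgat
RPL4 (chr15:66504836-66504865, - strand): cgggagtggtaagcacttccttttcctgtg
RPS27L (chr15:63157458-63157487, - strand): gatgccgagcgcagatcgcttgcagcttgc
RPL7L1 (chr6:42879606-42879635, + strand): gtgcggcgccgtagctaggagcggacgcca
RPL26L1 (chr5:172958719-172958748, + strand): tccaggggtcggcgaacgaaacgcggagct

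RPL31, RPL36A, RPS6, RPLP2, RPS27, RPSA and RPL22L1 carried the tract at the start itself. RPL4 had a tract of C and T a few bases after its annotated start. The annotated starts of RPS27L, RPL7L1 and RPL26L1, which encode variants of ribosomal proteins, carried none. A run of at least 6 C or T beginning within 10 bases of the start was found in 58 of the 66 genes (87.9%) against 31.5% of the other coding genes. On both strands of the 300-base windows, the letters GGGCGG were in 57.6% of the ribosomal protein genes and 77.5% of the other coding genes, CCGGAAG in 36.4% and 22.4%, AAGATGG in 13.6% and 9.53%, and TATAAA in 9.09% and 8.13%. These 4 strings do not contain each other.

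The ribosomal protein mRNAs were among the abundant transcripts of these cells. They took 6.03%, 1.77% and 5.87% of the reads in the Vector libraries and 6.74%, 5.26% and 5.60% in the shEZH2 libraries. Averaged over Vector replicates 1 and 3, the 81 genes that could be tested spanned 45.4 to 59216 normalized counts with a median of 10231, and 75 of them were above 1000. Of the 82 genes, RPL3L, a muscle form of RPL3, fell under the mean of 10 normalized counts needed for a test. It was read at 7.32, 1.16 and 4.07 normalized counts in the Vector libraries and 15.2, 12.8 and 7.64 in the shEZH2 libraries.

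The highest mean levels per kb of the gene length that the table lists were those of RPS2 (15413 normalized counts per kb), RPL13A (14087), RPS12 (12297), RPL8 (9338) and RPL4 (8972). RPS2 and RPS12 are small subunit proteins, and RPL13A, RPL8 and RPL4 sit in the large subunit. The listed lengths run over all exons of a gene, and ribosomal protein mRNAs have a coding part of only 75 to 1281 bases, with a median of 454.5 bases against 1431 bases over 12362 coding genes. Per kb of coding length, in Vector replicates 1 and 3, the order was led by RPL41 at 127319 normalized counts, RPLP1 at 85026, RPL13A at 62191 and RPS2 at 50450. RPL41 encodes the shortest protein of the ribosome, and its rank depends on the length scale. At the low end of the 81 tested genes, RPS10 was at 91.7, RPL36A at 340 and RPL17 at 374 normalized counts per kb of coding length. RPL3L, which was not tested, was at 4.67.

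Copies may make some of these levels uncertain, which was not tested. The table listed 408 pseudogenes for 68 of the 82 genes, which together held 4.48% as many normalized counts as the genes themselves. In 12 genes the pseudogenes held more than 10%, the highest being RPS10 at 645% and RPL9 at 135%. The pseudogene RPS10P7 was read at 227, 367, 233, 215, 209 and 222 normalized counts over Vector replicates 1 to 3 and shEZH2 replicates 1 to 3, while RPS10 was at 43.9, 54.7, 46.8, 38.1, 33.5 and 28.6. How multi-mapped reads were counted is not given in the sources used here. In the table, 18 genes overlapped a gene on the same strand, most often a small nucleolar RNA, and 37 overlapped a gene on the other strand.

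The largest difference among the libraries lay within the Vector group. In Vector replicate 2, 79 of 81 ribosomal protein genes were below every other library, against 37.6% of the 15251 genes tested, and 77 were under 50% of the mean of Vector replicates 1 and 3, against 12.7%. The median gene stood at 24.5% of that mean, with a range from 9.69% for RPL36 to 121% for RPS10. Vector replicates 1 and 3 were alike, with 68 of 81 genes within 10% of each other. The exceptions to the low reading were RPS10 and RPL7L1, a nucleolar protein related to RPL7, which was read at 2822, 2671 and 2858 normalized counts in the Vector libraries.

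**Figure D1:**
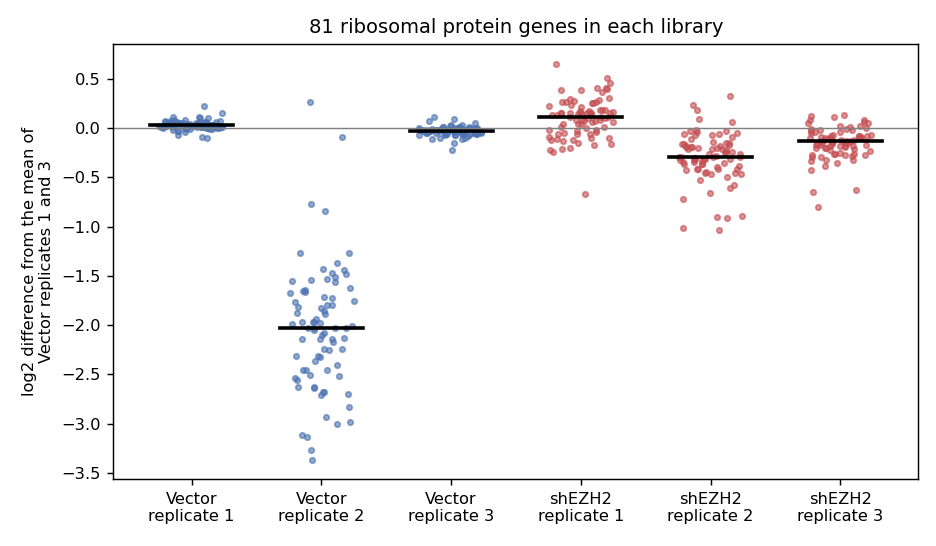
Log2 difference of each of the 81 ribosomal protein genes (points) from the mean of Vector replicates 1 and 3, in each library, with the median as a bar. Vector replicate 2 has a median of -2.03, and the medians of shEZH2 replicates 1 to 3 are 0.12, -0.29 and -0.14.

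The size of the fall in Vector replicate 2 varied with the length of the coding sequence. Across the 81 genes, the log2 difference of this library from Vector replicates 1 and 3 had a Spearman correlation of 0.66 and a Pearson correlation of 0.59 with coding length (log2 for Pearson), as a description over genes that share the same 3 libraries. Over 12203 other coding genes the values were 0.61 and 0.61. The 20 genes with the shortest coding sequences, 75 to 366 bases, stood at a median of 15.8% of Vector replicates 1 and 3, and the 20 longest, 624 to 1281 bases, at 31.9%.

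At like coding length, the median ribosomal protein gene was lower in this library than the median of the other coding genes. Between 300 and 449 bases of coding sequence, the median log2 difference was -2.32 over 29 ribosomal protein genes and -1.03 over 472 others. Between 700 and 1299 bases it was -1.55 over 15 and -0.34 over 3404. Annotated mRNA length gave a weaker relation among the ribosomal protein genes (Spearman 0.35), though not over 12239 other coding genes (Spearman 0.66), and the annotated transcripts reach 7573 bases for RPL37. The part of length in the reading of this library was not tested apart from other properties of these mRNAs, and in bulk RNA a lower level in all cells and in part of the cells cannot be told apart.

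**Figure D2:**
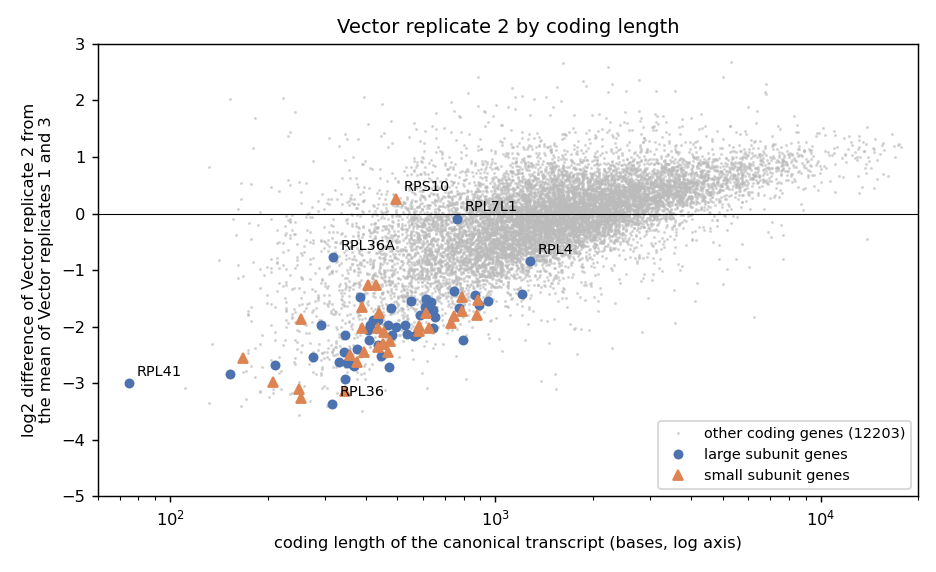
Log2 difference of Vector replicate 2 from the mean of Vector replicates 1 and 3 against coding length in bases (log axis), for the ribosomal protein genes (blue circles, large subunit; orange triangles, small subunit) and 12203 other coding genes (grey). Most ribosomal protein genes lie in the lower part of the grey cloud, where other short genes also lie, and RPS10 and RPL7L1 lie near 0.

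Over all 6 libraries, knockdown of EZH2 moved no ribosomal protein gene past the threshold of the study, which asks for an unadjusted p below 0.05 and a change of more than 1.5-fold. Of 81 genes, 0 were higher, against 7.55% of all genes tested, and 0 were lower, against 7.07%. With adjusted p-values (limma, Benjamini-Hochberg over 15251 genes) 0 were higher, against 2.28%, and 0 lower, against 1.84%. At an unadjusted p under 0.05 the count was also 0, though the share of all genes at that cut was not counted. On the recovered reads edgeR and DESeq2 called 0 of the 81 in either direction. Of 15251 genes, edgeR called 1086 higher and 1191 lower past the threshold, and DESeq2 1045 and 1321. By adjusted p edgeR called 379 higher and 300 lower, and DESeq2 770 and 874. The fold changes themselves were positive for 78 of 81 genes, with a median of 0.57 on the log2 scale against 0.04 over all genes, and a median SE of 0.52. RPS10 had the lowest p-value (log2 fold change -0.53 ± 0.23 SE, limma adjusted p = 0.215). The groups did not overlap in 3 genes, with every shEZH2 library above in RPL26L1 and RPSA, against 18.4% of all genes, and below in RPS10, against 16.5%.

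Without Vector replicate 2, the direction turned. The median log2 fold change was -0.11 against -0.01 over all genes, and the median SE fell to 0.115. In shEZH2, 71 of 81 genes were lower and 10 higher, against 7720 and 7531 of 15251 genes tested. The median log2 difference from Vector replicates 1 and 3 was 0.12 in shEZH2 replicate 1, -0.29 in replicate 2 and -0.14 in replicate 3. Still 0 genes passed the threshold in either direction, against 7.05% of all genes higher and 5.64% lower. With adjusted p-values (limma), 3 genes were lower and 0 higher, against 9.07% and 9.78% of all genes tested. These were RPL3, RPL31 and RPL36A. A further 6 genes, RPL5, RPL4, RPS7, RPL7, RPL9 and RPL12, were lower at an unadjusted p under 0.05 only. The share of all genes at that cut was not counted, so these 6 are not read as a result about the group. Every shEZH2 library lay below both remaining Vector libraries in 20 of 81 genes, against 24.9% of all genes, and above them in 2 genes, RPL26L1 and RPSA, against 25.1%.

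**Figure D3:**
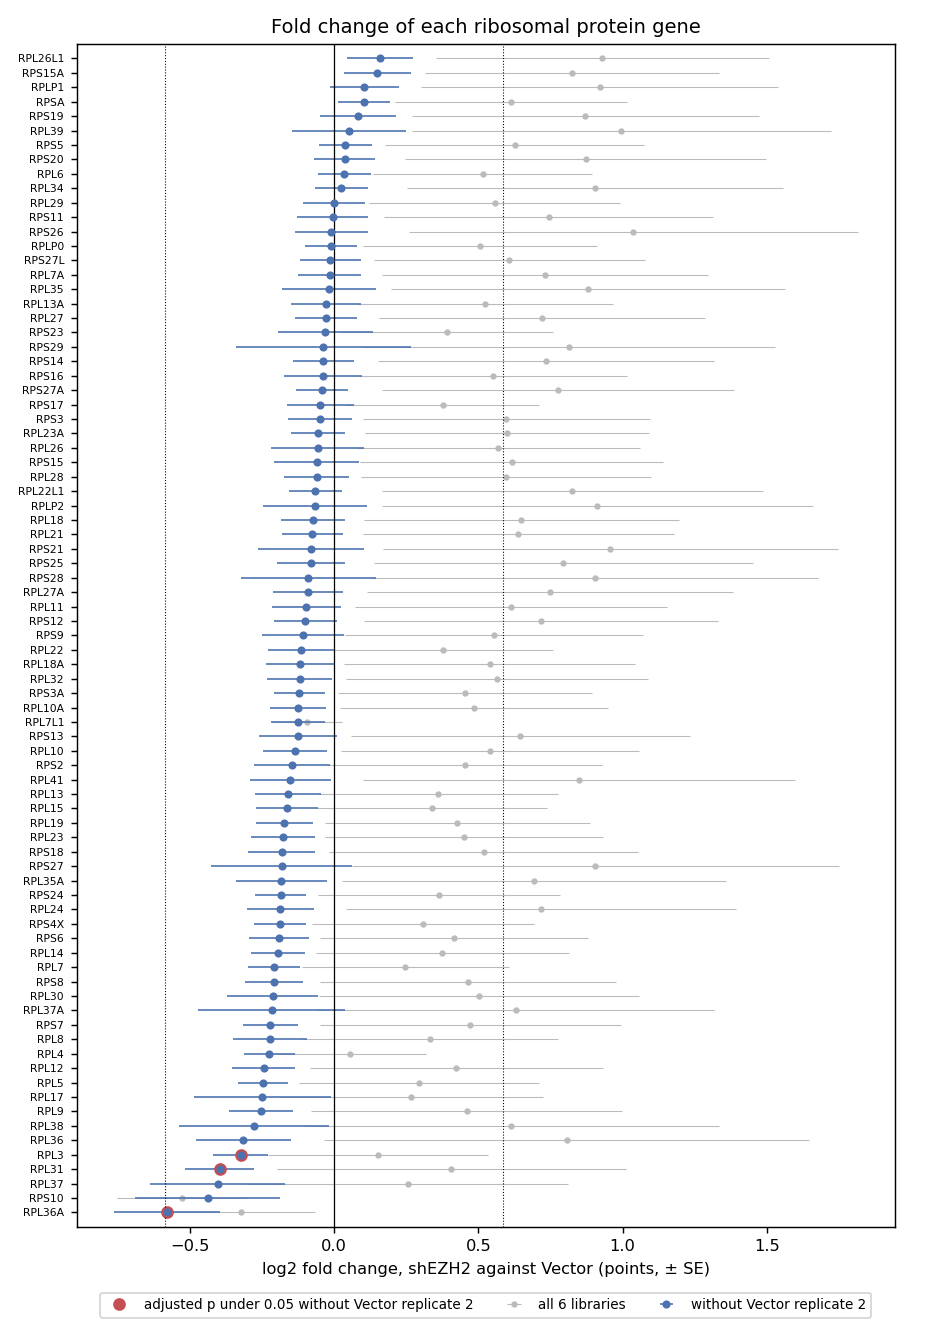
Log2 fold change of shEZH2 against Vector for each of the 81 ribosomal protein genes, with SE bars, over all 6 libraries (grey) and without Vector replicate 2 (blue; red where the limma adjusted p was under 0.05). Dotted lines mark a 1.5-fold change in both directions. The grey points have a median of 0.57 and the blue ones of -0.11.

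RPL3 encodes a large subunit protein near the peptidyl transferase centre (chr22:39312882-39320389, - strand, in the table). It was read at 43461, 16223 and 43689 normalized counts in the Vector libraries and at 37706, 32707 and 34153 in the shEZH2 libraries. The shEZH2 libraries lay below Vector replicates 1 and 3 and above Vector replicate 2. The log2 fold change was 0.15 ± 0.38 (SE; limma, adjusted p = 0.827) over all libraries and -0.32 ± 0.095 (adjusted p = 0.0296) without Vector replicate 2.

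RPL31, a protein close to the exit of the peptide tunnel (chr2:101001715-101024032, + strand), was read at 10483, 1991 and 10628 normalized counts in Vector and 9505, 6907 and 7851 in shEZH2. Its log2 fold change was 0.41 ± 0.61 (SE; limma, adjusted p = 0.700) over all libraries and -0.40 ± 0.12 (adjusted p = 0.0351) without Vector replicate 2. As for RPL3, Vector replicate 2 alone set the direction over all libraries.

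RPL36A (chrX:101390824-101396154, + strand) was read at a low level, 101, 62.9 and 115 normalized counts in Vector and 67.6, 79.1 and 69.7 in shEZH2. Here Vector replicate 2 was below all other libraries as well, but at 58.1% of the other Vector libraries it fell by less than most of the group. The log2 fold change was -0.32 ± 0.25 (SE; limma, adjusted p = 0.464) over all libraries and -0.58 ± 0.18 (adjusted p = 0.0437) without Vector replicate 2. The pseudogenes of RPL36A held 17.9% as many counts as the gene. Its paralog RPL36AL, which encodes nearly the same protein and lies outside the naming rule, was read at 1104, 191 and 1058 normalized counts in Vector and 998, 790 and 789 in shEZH2. The log2 fold change of RPL36AL without Vector replicate 2 was -0.34 ± 0.12 (SE; limma, adjusted p = 0.0730). Over all 6 libraries it was 0.49 ± 0.62 (limma adjusted p = 0.647).

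**Figure D4:**
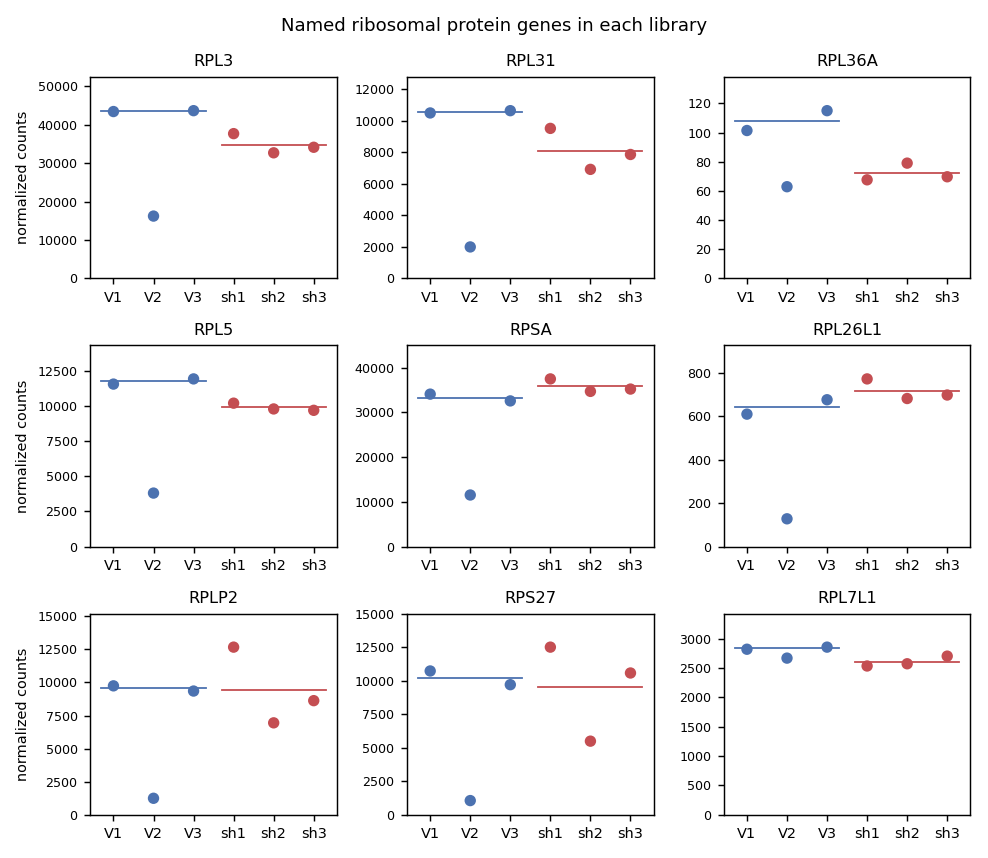
Normalized counts of 9 ribosomal protein genes in Vector replicates 1 to 3 (V1 to V3, blue) and shEZH2 replicates 1 to 3 (sh1 to sh3, red), with lines at the mean of Vector replicates 1 and 3 and of the 3 shEZH2 libraries. RPL3, RPL31, RPL36A and RPL5 sit below the Vector line in every shEZH2 library, and RPSA and RPL26L1 above it.

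RPL5 and RPL11 join the 5S ribosomal RNA in a particle that enters the large subunit and that can bind MDM2. RPL5 was read at 11538, 3799 and 11906 normalized counts in Vector and 10183, 9773 and 9675 in shEZH2, so that the shEZH2 libraries lay below Vector replicates 1 and 3. Its log2 fold change without Vector replicate 2 was -0.25 ± 0.087 (SE; limma, adjusted p = 0.0656). RPL11 was read at 11623, 2596 and 11129 in Vector and 12589, 9130 and 10468 in shEZH2, with overlapping groups and a log2 fold change of -0.10 ± 0.12 (adjusted p = 0.628). The difference between RPL5 and RPL11 was not tested. RPL4, whose protein lines the peptide tunnel, was read at 59143, 32996 and 59289 in Vector and 50848, 49454 and 51725 in shEZH2 (log2 fold change -0.22 ± 0.088 without Vector replicate 2, limma adjusted p = 0.0955). When all 6 were used, the log2 fold changes of RPL5, RPL11 and RPL4 were 0.29 ± 0.42, 0.61 ± 0.54 and 0.06 ± 0.26 (SE; limma, adjusted p = 0.682, 0.510 and 0.910).

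The stalk proteins, which recruit translation factors to the ribosome, did not pass the test. RPLP0 was read at 36507, 12344 and 35555 normalized counts in Vector and 37091, 33879 and 36405 in shEZH2. RPLP1 was read at 29480, 5322 and 28678 in Vector and 37490, 28383 and 28682 in shEZH2. RPLP2 was read at 9740, 1248 and 9347 in Vector and 12663, 6946 and 8621 in shEZH2. For RPLP1 and RPLP2, shEZH2 replicate 1 was above all Vector libraries while the other shEZH2 libraries were near or below Vector replicates 1 and 3. The log2 fold changes without Vector replicate 2 were -0.01 ± 0.090 for RPLP0, 0.10 ± 0.12 for RPLP1 and -0.07 ± 0.18 for RPLP2 (SE). With it they were 0.50 ± 0.41, 0.92 ± 0.62 and 0.91 ± 0.75.

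In the small subunit, RPS6, the substrate of the S6 kinases downstream of mTORC1, was read at 13647, 3829 and 13345 normalized counts in Vector and 13145, 10493 and 11989 in shEZH2. All shEZH2 libraries lay below Vector replicates 1 and 3, and the log2 fold change without Vector replicate 2 was -0.19 ± 0.10 (SE; limma, adjusted p = 0.229). RPS19, the gene most often mutated in Diamond-Blackfan anaemia, was read at 14388, 2728 and 13755 in Vector and 18392, 12618 and 14234 in shEZH2. RPSA, also known as a laminin receptor, was read at 34105, 11538 and 32588 in Vector and 37513, 34720 and 35239 in shEZH2. RPSA was above Vector in every shEZH2 library, but its log2 fold change without Vector replicate 2 was 0.10 ± 0.090 (SE; limma, adjusted p = 0.469). With all 6 libraries the log2 fold changes of RPS6, RPS19 and RPSA were 0.42 ± 0.47, 0.87 ± 0.60 and 0.61 ± 0.40 (SE; limma, adjusted p = 0.604, 0.407 and 0.386).

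RPS27A is made as a fusion with ubiquitin. It was read at 8712, 1569 and 8516 normalized counts in Vector and 8848, 8207 and 8039 in shEZH2 (log2 fold change -0.04 ± 0.090 without Vector replicate 2). RPS3, which also takes part in DNA repair, was read at 16449, 4190 and 15734 in Vector and 17902, 13756 and 15248 in shEZH2 (-0.05 ± 0.11). In both genes the groups overlapped. With all 6 libraries their log2 fold changes were 0.77 ± 0.61 and 0.60 ± 0.50 (SE).

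Of the abundant genes, RPS2 was read at 44932, 12770 and 43760 normalized counts in Vector and 49707, 35155 and 36825 in shEZH2. RPL13A, which also takes part in silencing of interferon-gamma induced mRNAs, was read at 38351, 12019 and 37397 in Vector and 44456, 32021 and 35996 in shEZH2. RPS12 was read at 11667, 2072 and 10994 in Vector and 12148, 9499 and 10211 in shEZH2. In each of these genes shEZH2 replicate 1 was above every Vector library and the other shEZH2 libraries were below Vector replicates 1 and 3. RPL8 (24687, 7747 and 24546 in Vector; 25973, 18433 and 19575 in shEZH2) and RPL10, a late-joining large subunit protein (15347, 3670 and 14623 in Vector; 15728, 12064 and 13375 in shEZH2), had the same order. The log2 fold changes of these 5 genes without Vector replicate 2 ran from -0.22 for RPL8 to -0.03 for RPL13A, with adjusted p-values (limma) from 0.253 to 0.903. With all 6 libraries they ran from 0.33 for RPL8 to 0.72 for RPS12.

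The remaining extremes without Vector replicate 2 were not called. RPL37 (8144, 1965 and 7361 normalized counts in Vector; 8614, 3770 and 6170 in shEZH2) and RPL36 (4495, 418 and 4134 in Vector; 4620, 2737 and 3293 in shEZH2) had log2 fold changes of -0.40 ± 0.23 and -0.31 ± 0.17 (SE; limma, adjusted p = 0.258 and 0.212). In both, shEZH2 replicate 1 was above every Vector library and the other shEZH2 libraries were below Vector replicates 1 and 3. RPS15A (1525, 359 and 1403 in Vector; 1621, 1827 and 1441 in shEZH2) was at the high end with a log2 fold change of 0.15 ± 0.12 (adjusted p = 0.408). With all 6 libraries the log2 fold changes of RPL37, RPL36 and RPS15A were 0.26 ± 0.56, 0.81 ± 0.84 and 0.82 ± 0.51 (SE).

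Some ribosomal proteins have paralogs, and the difference between paralogs on knockdown was not tested. RPL22L1 was read at 2906, 456 and 2927 normalized counts in Vector and 2786, 2860 and 2721 in shEZH2, and RPL22, whose protein represses RPL22L1 splicing and expression in some cells, at 1238, 435 and 1183 in Vector and 1219, 1154 and 993 in shEZH2. Their log2 fold changes without Vector replicate 2 were -0.06 ± 0.091 and -0.11 ± 0.11 (SE). With all 6 libraries they were 0.83 ± 0.66 and 0.38 ± 0.38. Per kb of coding length in Vector replicates 1 and 3, RPL22L1 stood at 7969 normalized counts and RPL22 at 3153.

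RPS27L was read at 2701, 715 and 2493 in Vector and 2746, 2313 and 2678 in shEZH2, while RPS27, also called metallopanstimulin, was at 10744, 1063 and 9719 in Vector and 12524, 5501 and 10593 in shEZH2. Both code for 252 bases, yet Vector replicate 2 stood at 10.4% of the other Vector libraries for RPS27 and at 27.5% for RPS27L. RPL26L1 was read at 611, 128 and 677 in Vector and 773, 683 and 699 in shEZH2, and RPL26 at 662, 154 and 486 in Vector and 546, 642 and 462 in shEZH2. The log2 fold change of RPL26L1 without Vector replicate 2 was the highest of the 81 genes, at 0.16 ± 0.11 (SE; limma, adjusted p = 0.375). For RPL7L1, read at 2537, 2574 and 2705 in shEZH2, and RPL7, read at 13593, 5228 and 13373 in Vector and 12493, 11093 and 11454 in shEZH2, the log2 fold changes without Vector replicate 2 were -0.13 ± 0.093 and -0.21 ± 0.092 (SE; limma, adjusted p = 0.383 and 0.134). RPL7 and RPL7L1 differed in Vector replicate 2, at 38.8% and 94.0% of the other Vector libraries, and their coding sequences are 744 and 765 bases long. With Vector replicate 2 included, the log2 fold changes of RPS27L and RPS27 were 0.61 and 0.91, those of RPL26L1 and RPL26 0.93 and 0.57, and those of RPL7L1 and RPL7 -0.10 and 0.25.

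The shEZH2 libraries also differed among themselves. In 67 of 81 genes shEZH2 replicate 1 was the highest and replicate 2 the lowest of the 3, against 24.4% of all genes tested. The gap between these libraries was widest in genes with short coding sequences, with a Spearman correlation of -0.49 between coding length and the log2 difference over the 81 genes and of -0.28 over 12203 other coding genes. RPS29, with 168 coding bases, was read at 2306, 354 and 1875 normalized counts in Vector and 3266, 1115 and 2286 in shEZH2. RPL38, with 210, was read at 3884, 566 and 3383 in Vector and 4472, 1791 and 3330 in shEZH2. RPL39, with 153, was read at 2482, 356 and 2605 in Vector and 3605, 1846 and 2748 in shEZH2.

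These short genes had wide errors and the long ones narrow errors. Without Vector replicate 2 the median SE was 0.173 over the 20 shortest and 0.095 over the 20 longest genes, and their median log2 fold changes were -0.08 and -0.15. Of the 20 longest, 10 had every shEZH2 library below both remaining Vector libraries, and of the 20 shortest, 2, against 24.9% of all genes tested. With the trend of coding length removed within each library and without Vector replicate 2, 8 genes had an adjusted p under 0.05 (limma) and were lower, against 12.1% of 12382 genes, and 0 were higher, against 13.2%. These were RPL3, RPL4, RPL5, RPL7, RPL12, RPL31, RPL36A and RPS7. This setting was chosen after seeing the data.

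Genes with and without the pyrimidine tract at an annotated start were set side by side as a description. Without Vector replicate 2 the median log2 fold change was -0.09 over 47 genes with the tract, from -0.58 to 0.10, and -0.12 over 19 genes without it, from -0.32 to 0.16. In Vector replicate 2 they stood at a median of 22.3% and 27.5% of the other Vector libraries, with median coding lengths of 438 and 576 bases.

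The related lists were compared in the same fit without Vector replicate 2, where 9.07% of all genes were lower and 9.78% higher by adjusted p, and 5.64% were lower and 7.05% higher past the threshold. Over all 6 libraries, where the shares by adjusted p were 1.84% and 2.28%, 0 genes of the lists named below had an adjusted p under 0.05 (limma), except 1 pseudogene that was higher. Among RNAs known for a 5′ TOP start that host small nucleolar RNAs, 5 of 10 tested were lower by adjusted p and 4 of them passed the threshold, with a median log2 fold change of -0.42, against 0.26 over all 6 libraries. At the annotated RefSeq starts, SNHG12 had a tract of 11 C or T, while GAS5 and EPB41L4A-AS1 had none. GAS5, whose exons are spliced around such RNAs, was read at 10116, 1750 and 10272 normalized counts in Vector and 6918, 6319 and 6231 in shEZH2 (log2 fold change -0.65 ± 0.091 SE, limma adjusted p = 0.000380). EPB41L4A-AS1, SNHG12 and SNHG8 fell by 0.88, 0.86 and 0.69 on the log2 scale. Over all 6 libraries 0 of these 10 passed the threshold, and Vector replicate 2 was low again, at a median log2 difference of -2.53 from the other Vector libraries.

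Genes listed for a 5′ TOP start, mostly translation factors with some others such as NPM1, had a median log2 fold change of 0.01. Over all 6 libraries it was 0.18. By adjusted p 1 of 19 was lower, the nucleolar chaperone NPM1 (43753, 23204 and 43281 normalized counts in Vector; 31876, 35482 and 33707 in shEZH2; -0.37 ± 0.091 SE, limma adjusted p = 0.0130). In Vector replicate 2 the genes of this list stood at a median log2 difference of -0.72. EEF2, the elongation factor that moves the ribosome along the mRNA, was at 44303, 61885 and 41487 in Vector, higher in replicate 2 than in the other libraries. Of the ribosomal proteins outside the naming rule, RACK1 was lower (43690, 21216 and 42444 in Vector; 36665, 33775 and 35981 in shEZH2; -0.28 ± 0.090 SE, limma adjusted p = 0.0450), while FAU, made as a fusion with a ubiquitin-like protein, had a log2 fold change of -0.07 and did not pass. The log2 fold changes over all 6 libraries of NPM1, RACK1 and FAU were -0.07 ± 0.27, 0.06 ± 0.29 and 0.90 ± 0.74 (SE; limma, adjusted p = 0.893, 0.914 and 0.481).

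Among ribosome biogenesis genes 8 of 65 were lower and 0 higher by adjusted p, with a median of -0.11, and 3 passed the threshold. In the fit of all 6 libraries 0 of the 65 were called by adjusted p, the median was -0.05 and 2 were lower past the threshold, HEATR1 and MPHOSPH10. The 3 genes were HEATR1, a factor of ribosomal RNA transcription and processing (6787, 11534 and 6982 normalized counts in Vector; 3384, 4928 and 4622 in shEZH2), MPHOSPH10 of the small subunit processome (690, 566 and 662; 380, 458 and 379) and SBDS, which frees the large subunit of EIF6 (1219, 610 and 1257; 783, 903 and 771). HEATR1 and MPHOSPH10 did not overlap between the groups with all 6 libraries, whereas SBDS did. Every shEZH2 library lay below every Vector library in 17 of the 65 genes, against 16.5% of all genes tested. Every one lay above in 4, against 18.4%. The 78 mitochondrial ribosomal protein genes had a median log2 fold change of -0.0017, with 4 higher and 3 lower by adjusted p, and 1 past the threshold, MRPL23 (581, 205 and 558 in Vector; 933, 840 and 1023 in shEZH2). Their median over all 6 libraries was 0.36, with 70 of 78 above 0, 4 higher past the threshold against 7.55% of all genes, and 0 called by adjusted p.

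Of the chaperones and importers of ribosomal proteins, 1 of 12 was lower by adjusted p, the importin TNPO1. A list of 25 genes for TOP mRNA and mTORC1 control also held MYC, MAX and MXI1. Of these 25 genes, 3 were lower (RPTOR, MXI1 and RPS6KB1) and 1 higher (SESN2, which restrains mTORC1). TNPO1, RPTOR, MXI1, RPS6KB1 and SESN2 kept their direction over all 6 libraries, with limma adjusted p from 0.0907 for TNPO1 to 0.133 for RPS6KB1. Of the 408 pseudogenes of ribosomal protein genes 72 could be tested, of which 2 were higher and 4 lower by adjusted p and 3 higher and 3 lower past the threshold, against 7.05% and 5.64% of all genes. In the fit of all 6 libraries 1 was higher and 0 lower by adjusted p, and 3 were higher and 3 lower past the threshold, against 7.55% and 7.07%.

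**Figure D5:**
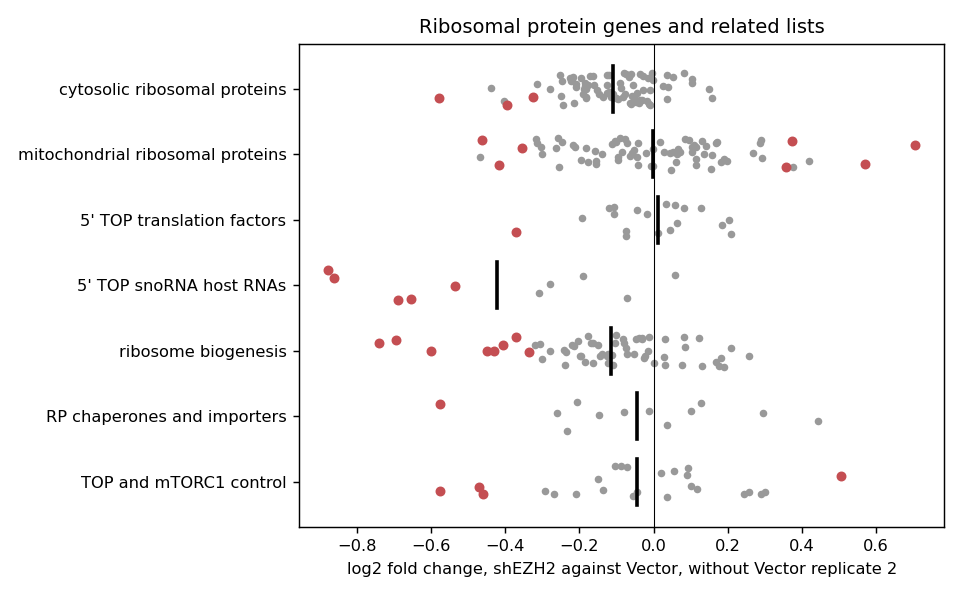
Log2 fold change of shEZH2 against Vector without Vector replicate 2 for each gene of the ribosomal protein genes and 6 related lists (points; red where the limma adjusted p was under 0.05), with the median as a bar. The bar of the ribosomal protein genes is at -0.11 and that of the small nucleolar RNA hosts at -0.42.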

How the data were processed

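The authors made gene counts with featureCounts and tested the groups with DESeq2 (1.20.0 in the submitters' processing notes). The aligner, strand setting and handling of multi-mapped reads are not given in the sources used here. The deposited signal values are those reads divided by 1 size factor per library, since 100% of the values in each library were whole multiples of its smallest value (tolerance 1e-06). The table's 6 per-library columns were all used. The authors' group means, log2 fold changes and p-values in the same table were not used. The labels name hg19, but a gene end matched GRCh38 for 47.0% of 15283 genes and GRCh37 for 0.680%, so table coordinates were read as GRCh38.

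Groups were compared with limma 3.58.1 (trend) on log2(normalized count + 1) over 15251 genes with a mean of at least 10, without a replicate block, and with Benjamini-Hochberg adjustment over all genes tested. Fold changes on this scale understate changes of low genes. Coding and mRNA lengths are those of canonical GENCODE transcripts, found for 82 of 82 genes. Genes were named by role, abundance, extreme fold change or as paralog pairs. The members, gene lists and tests were chosen with earlier results of these data known. Same-numbered libraries had deviation correlations of 0.28, 0.22 and -0.11, so the numbers were not taken as pairs. Vector replicates 1 and 3 differed by a mean chi-square of 2.15 per gene, above sampling noise, and were kept as separate libraries. The shEZH2 pairs differed by 6.41 to 23.4, and the pairs with Vector replicate 2 by 116 and 119. Without Vector replicate 2, the spread within Vector came from replicates 1 and 3 alone, which were closer than any shEZH2 pair. The alternatives were edgeR 4.0.16, DESeq2 1.42.0, TMM factors, scaling over other genes, pseudocounts of 0.1 and 5, no minimum or a minimum of 50, a fold threshold of 1, a replicate block, length trends removed by loess, and each library left out. The model was tested on simulated data. R 4.3.3 and Python 3 were used. Some results are not reported here.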

Additional observations from a re-analysis of the deposited data

How the results depend on the processing

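Leaving out Vector replicate 2 turned the direction of the median, and other choices changed which genes passed the threshold. With 1 library left out in turn, the median log2 fold change of the ribosomal protein genes ran from -0.11 (without Vector replicate 2) to 0.91. The genes higher past the threshold ran from 0 to 1. These were RPS15A without Vector replicate 1, against 1525 of 15251 genes tested, and RPL26L1 without Vector replicate 3, against 1431. The genes lower past it ran from 0 to 1, RPS10 without shEZH2 replicate 1, against 773. The genes lower by adjusted p ran from 0 to 3, the 3 without Vector replicate 2, against 1384. EZH2 ran from -1.12 to -0.96 and stayed past the threshold. The direction turned without Vector replicate 2 in 24 named genes, whose log2 fold changes over the libraries left out ran as follows: RPL10 -0.14 to 0.90, RPL11 -0.097 to 0.98, RPL13A -0.028 to 0.81, RPL22 -0.11 to 0.64, RPL22L1 -0.065 to 1.27, RPL26 -0.057 to 0.99, RPL3 -0.32 to 0.39, RPL31 -0.40 to 0.81, RPL36 -0.31 to 1.40, RPL36AL -0.34 to 0.92, RPL37 -0.40 to 0.62, RPL4 -0.22 to 0.20, RPL5 -0.25 to 0.58, RPL7 -0.21 to 0.48, RPL8 -0.22 to 0.61, RPLP0 -0.011 to 0.77, RPLP2 -0.065 to 1.42, RPS12 -0.10 to 1.15, RPS2 -0.15 to 0.76, RPS27 -0.18 to 1.49, RPS27A -0.044 to 1.19, RPS27L -0.013 to 0.95, RPS3 -0.050 to 0.94 and RPS6 -0.19 to 0.73. RPL37 also turned without shEZH2 replicate 1.

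Over all 6 libraries, 1 gene was higher past the threshold with no minimum level (RPL3L), against 1701 of 30015 genes. With the replicate block, whose numbers do not pair the libraries, 2 were higher (RPL39 and RPS29), against 1322 of 15251. With a length trend removed, 1 gene was lower past the threshold by listed gene length (RPS10), against 993 of 15251 genes tested. By mRNA length it was 1 (RPS10), against 900 of 15008, and by coding length 2 (RPS10 and RPL36A), against 813 of 12382. Some single genes turned: RPL3, RPL4 and RPL7 were at -0.11, -0.045 and -0.011 with the mRNA length trend removed, RPL37 and RPL4 at -0.18 and -0.027 with the coding length trend removed, RPL7L1 at 0.0034 with the gene length trend removed, and RPL4 at -0.0095 with DESeq2. Without Vector replicate 2, edgeR called 5 of 81 genes lower by adjusted p, against 1475 of 15251 genes tested. It called 1 lower past the threshold (RPL36A), against 904 of 15251. DESeq2 called 2 lower by adjusted p (RPL3 and RPL31), against 1301 of 15251. With the mRNA length trend removed, limma called 10 of 81 lower, against 11.6% of 15008 genes. With the coding length trend removed, limma called 8, against 12.1% of 12382 genes. The settings without Vector replicate 2 that use another tool or a length trend, and the mRNA and coding length trends, were chosen after seeing the data. The cause of these changes was not tested. The other settings, TMM factors, scaling over other genes, other pseudocounts, a minimum of 50 and a fold threshold of 1, left the counts at 0. Depth limits the precision of few of these genes, since 75 of 81 were above 1000 normalized counts in Vector replicates 1 and 3.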
